A study of Rattus norvegicus and Bos taurus with 6 samples.

Results

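The nuclei described here are the adipocyte nuclei of rat mesenteric perivascular adipose tissue (mesPVAT), sequenced on the 10x Genomics platform. A nucleus was chosen when it held at least 2 transcripts (UMIs) in total over 9 adipocyte genes, called A, and none over 14 genes of other cell types, called B. The adipocyte genes were Plin1, Adipoq, Cidec, Lipe, Acsl1, Pparg, Plin4, Pnpla2 and Dgat2. The genes of other cell types were Msln, Wt1 and Pkhd1l1 for mesothelium, Ptprb, Pecam1, Flt1 and Mecom for blood endothelium, Prox1 for lymphatic endothelium, Pdgfra, Dcn and Fbn1 for stroma, and Ptprc, Mrc1 and Cd163 for immune cells. This rule chose 1803 of the 5887 nuclei in the library, which is 30.6% (95% exact binomial interval 29.5 to 31.8%), and they held 430119 of its 1237543 UMIs, or 34.8%. The whole series holds 19424 nuclei.

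The tissue came from male Dahl salt-sensitive rats of the strain SS/HsdMcwiCrl, housed at 22 °C and 50% humidity. No treatment is labelled, and the age is not given in the sources used here. The library is batch 1 of the series and the only 10x Genomics library, with 1 library for each condition, so no difference below has a replicate check and none was tested. Every interval is at 95% and covers counting error only. The other nuclei of the same library, 4084 in number, are the comparison throughout. The labels and the supplementary methods describe different ways of isolating the nuclei for this library, and the sources name a sort on a DNA stain in only one of them. No barcode was shared with the other 4 rat libraries (0 in each).

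Adipocytes store energy as triglyceride in a lipid droplet. They make glycerol 3-phosphate and fatty acids, join them in the endoplasmic reticulum, and release them again through the lipases Pnpla2, Lipe and Mgll when beta-adrenergic receptors raise cAMP. Insulin opposes that release and drives glucose uptake and fat synthesis. The fat around mesenteric arteries is mostly white in rats, touches the mesothelium that covers the mesentery, and secretes adipokines and vasoactive factors beside the vessel wall. Nuclear RNA holds much unspliced transcript, and free RNA from broken adipocytes can enter any droplet.

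The chosen nuclei were shallow, but deeper than the rest. They held a median of 206 UMIs (interval 200 to 214, range 85 to 1328) against 145 in the other nuclei (142 to 148, range 84 to 5014), and a median of 175 genes against 124. The rule itself bears on depth, since at least 2 adipocyte UMIs favours deep nuclei and the absence of other markers favours shallow ones. After each nucleus was thinned to 200 UMIs, the median was 176 genes in the adipocyte nuclei and 177 in the other nuclei. Only 945 of the 1803 adipocyte nuclei and 1154 of the 4084 others were deep enough for that comparison. Mitochondrial transcripts, a sign of cytoplasm carried along, were 0.148% of the UMIs in adipocyte nuclei (0.137 to 0.160) and 0.182% in the others (0.173 to 0.192). Among stromal nuclei, chosen by at least 2 UMIs over the stromal genes of the rule and none over those of the other classes, they reached 0.338% (0.288 to 0.395). Mesothelial, blood endothelial and immune nuclei, chosen in the same way, stood at 0.143% (0.118 to 0.171), 0.153% (0.0908 to 0.242) and 0.161% (0.114 to 0.221). Their median UMIs, in that order, were 187 (170 to 206), 183 (160 to 223) and 211 (192 to 265). Stromal nuclei had a median of 186.5 UMIs (169 to 215).

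Most adipocyte nuclei sat close to the threshold. The median A was 3 UMIs, with 2 and 5 at the quartiles and 28 at the most, and 545 nuclei had exactly 2. A single adipocyte gene carried the choice in 170 nuclei (9.43%), while 725 nuclei showed 2 of the 9 genes and 503 showed 3. Just outside the threshold were 735 nuclei with 1 adipocyte UMI and no other marker, and 373 nuclei with at least 2 adipocyte UMIs and 1 UMI of another type. A further 1055 nuclei, with a median of 119 UMIs, held no UMI of either set.

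**Figure D1:**
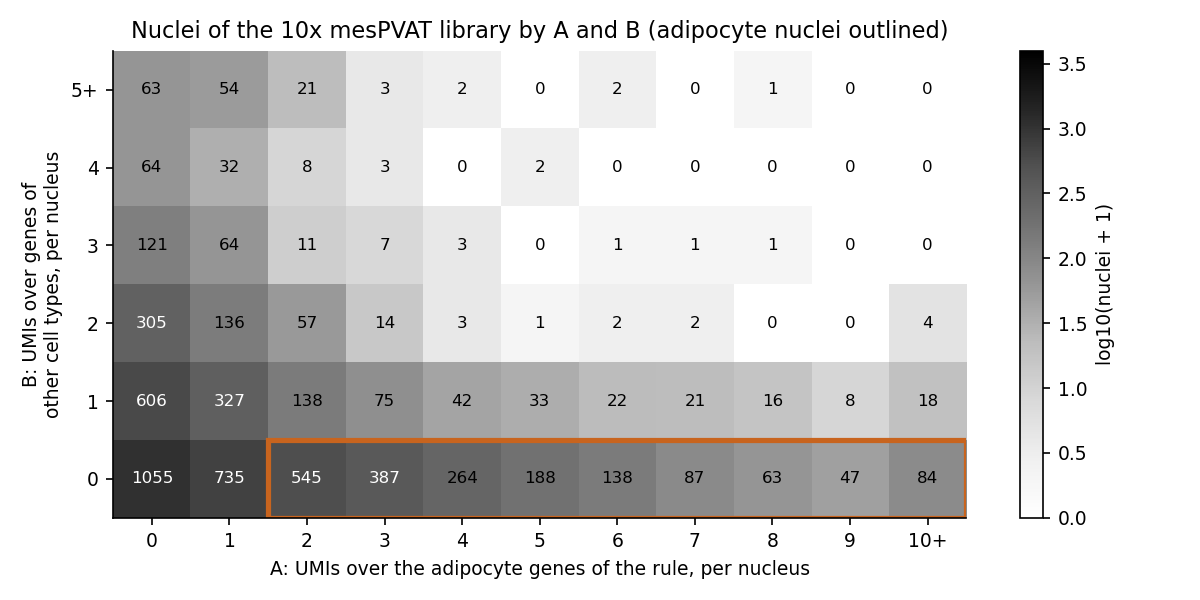
Number of nuclei of the 10x mesPVAT library at each value of A (horizontal axis, UMIs over the 9 adipocyte genes of the rule) and of B (vertical axis, UMIs over the 14 genes of other cell types); grey shade is log10(nuclei + 1). The outlined cells are the 1803 adipocyte nuclei, of which 545 lie at A = 2, beside 735 nuclei at A = 1 and 1055 at A = 0 in the same row.

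The 9 genes that chose the nuclei are given as a description only. Lipe, hormone-sensitive lipase, had 2448 UMIs in adipocyte nuclei and 1011 in the others, and 70.6% of adipocyte nuclei held at least 1 of them. Pnpla2, the lipase that takes the first fatty acid off triglyceride, had 1884 and 780 UMIs. Acsl1, which activates fatty acids to acyl-CoA, had 1151 and 478, and Adipoq, the adipokine adiponectin, had 677 and 425. Plin1, the main coat protein of the adipocyte lipid droplet, had 600 and 216. Dgat2, Cidec, Pparg and Plin4 had 410, 177, 176 and 162 UMIs in the adipocyte nuclei. The UMIs of these genes outside the chosen nuclei lay in nuclei with A below 2 or with a marker of another type. Of the 14 other genes, Fbn1 with 1043 UMIs, Pkhd1l1 with 1017 and Msln with 700 were the most abundant in the other nuclei, and all 14 were at 0 in adipocyte nuclei by the rule.

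Adipocyte genes that had no part in the choice were also higher in these nuclei, as the label has it. A list of 20 such markers, of which 19 are in the files, summed to 22608 CPM (UMIs per 1000000 UMIs) in adipocyte nuclei (interval 22161 to 23062) and 9155 in the others (8948 to 9366), a ratio of 2.47 (2.40 to 2.55). Of its 16 genes with at least 50 UMIs in the library, 12 were at least 2-fold higher, 0 were 2-fold lower and 4 lay between, with a median ratio of 2.46. Over all 5011 genes with at least 50 UMIs and outside the rule, 392 were at least 2-fold higher, which is 7.82%, and 756 were at least 2-fold lower, which is 15.1%, with a median ratio of 0.981. All genes were counted in the same nuclei that the rule picked, so these counts describe the choice and test nothing. The list of 20 includes Adcy5, Pc and Pmepa1, which were themselves named as markers of these nuclei.

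By single gene of that list, Pck1, the enzyme that feeds glycerol 3-phosphate synthesis from pyruvate, had 1893 UMIs in adipocyte nuclei and 1123 in the others, a CPM ratio of 3.16 (2.94 to 3.41). It took the most UMIs of the list, and without it the summed ratio was 2.34 (2.27 to 2.42). Fabp4, the fatty acid carrier of the cytosol, had 1440 and 1231 UMIs with a ratio of 2.20. Ghr, the growth hormone receptor, had 1404 and 1148 with a ratio of 2.30. Lep, the hormone leptin, had 219 and 157 UMIs with a ratio of 2.61. The 4 genes between the folds were Lpl at 1.54, Cavin1 at 1.60, Nrg4 at 1.42 and Fasn at 1.22, and the intervals of Nrg4 (0.935 to 2.11) and Fasn (0.866 to 1.69) included 1. Slc2a4, the insulin-sensitive glucose transporter, had only 16 UMIs in adipocyte nuclei, and Cebpa, a transcription factor of adipogenesis, had 2.

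The marker level outside the rule followed A and B. It was 9241 CPM in nuclei with neither set, 14299 at A = 1, and 20054, 22128 and 23001 at A = 2, 3 and 4, all with B = 0. In the 84 nuclei with A of at least 10 it was 26013 (24543 to 27548). Nuclei with A of at least 2 and a single UMI of another type, which the rule leaves out, stood at 20049 (19184 to 20944), below the 22608 (22161 to 23062) of all adipocyte nuclei. The 149 nuclei with at least 2 UMIs on both sides stood at 8378. Median depth moved with A, from 119 UMIs at A = 0 to 147 at A = 2 and 508 at A of at least 10, and its part in these levels was not tested.

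The adipocyte genes outside the rule were also summed in nuclei of other cell types. Each class was chosen like the stromal one, whatever the A of its nuclei. The same markers summed to 4590 CPM in 317 mesothelial nuclei (4137 to 5078), 5633 in 166 stromal nuclei (4973 to 6357), 4031 in 85 immune nuclei (3262 to 4928) and 7576 in 54 blood endothelial nuclei (6084 to 9323). Fabp4 stood at 2469 CPM in the blood endothelial nuclei, from 29 UMIs, and Lipe of the rule also had 29 UMIs there. Some of these genes may also be made by those cells, and the source of these UMIs was not tested.

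**Figure D2:**
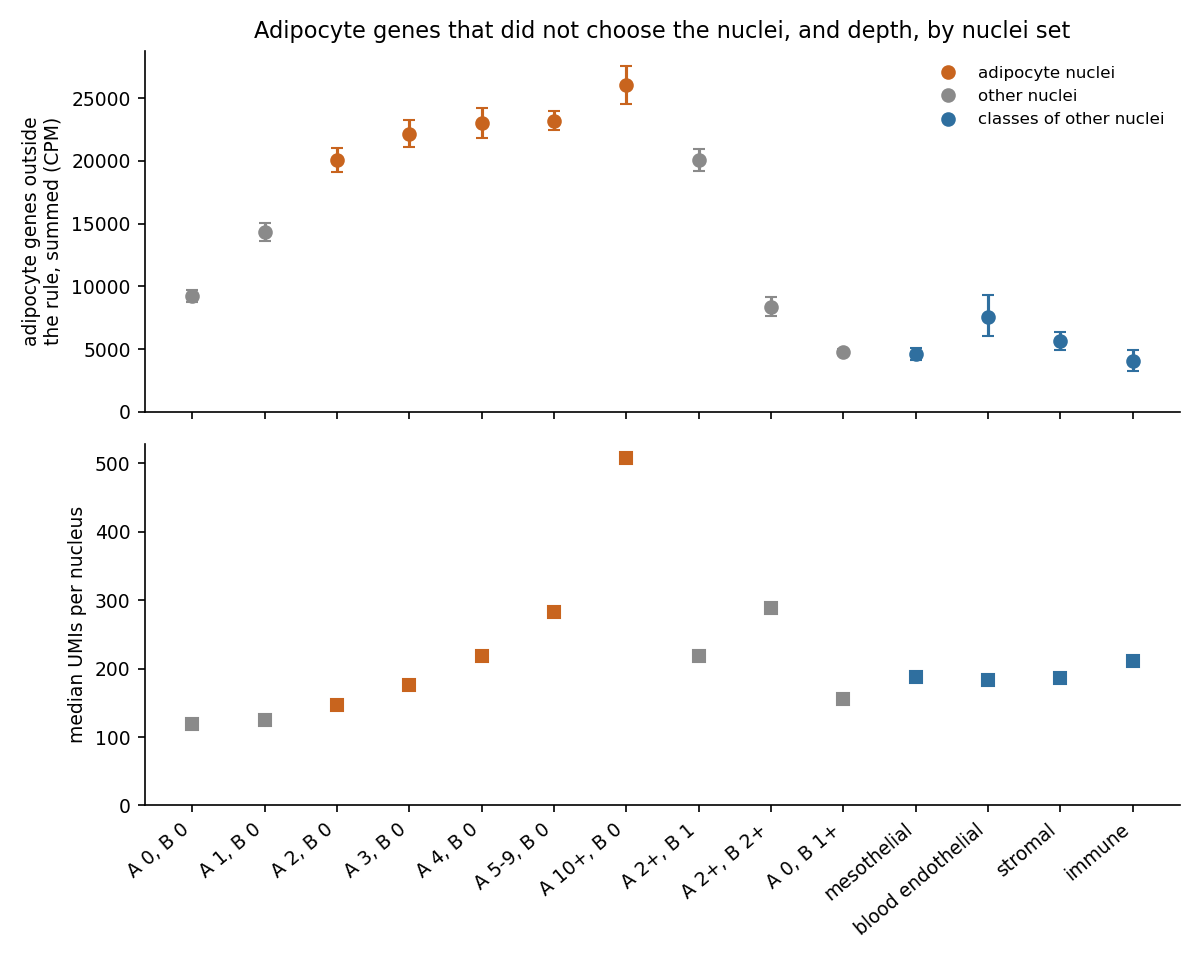
Summed level of 19 adipocyte genes outside the rule (upper panel, CPM, bars are 95% Poisson intervals) and median UMIs per nucleus (lower panel) for nuclei grouped by A and B and for the classes of other cell types. The adipocyte nuclei (A of 2 or more, B of 0) lie between 20054 and 26013 CPM, above the mesothelial, stromal, immune and blood endothelial nuclei at 4031 to 7576 CPM, and depth rises with A.

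Adcy5, Pc and Pmepa1 were named as markers of these nuclei, took no part in the rule and belong to the list of adipocyte genes above. Adcy5, an adenylyl cyclase that makes cAMP, had 460 UMIs in adipocyte nuclei (1069 CPM) and 263 in the others (326 CPM), a ratio of 3.28 (2.82 to 3.84). Pc, pyruvate carboxylase, which supplies oxaloacetate for fatty acid and glyceride-glycerol synthesis, had 469 and 299 UMIs with a ratio of 2.94 (2.54 to 3.42). Pmepa1, a membrane protein that dampens TGF-beta signalling, had 774 and 448 UMIs with a ratio of 3.24 (2.88 to 3.65). All 3 were past 2-fold. Against only the other nuclei with A = 0, the ratios were 6.02 for Adcy5, 4.76 for Pc and 6.18 for Pmepa1. At an equal 200 UMIs, Adcy5 was seen in 20% of adipocyte nuclei (17.5 to 22.7), 7.11% of the other nuclei (5.69 to 8.74), 3.47% of mesothelial nuclei (1.14 to 7.92) and 2.13% of immune nuclei (0.0539 to 11.3). Without thinning, the shares were 20.2%, 5.02%, 3.15% and 1.18%, at median depths of 206, 145, 187 and 211 UMIs. Pc was seen in 18.6% of adipocyte nuclei and 1.39% of mesothelial nuclei at 200 UMIs, and Pmepa1 in 27.1% and 4.17%. Pmepa1 was also seen in 6.38% of immune and 5.06% of stromal nuclei at that depth. For all 3 genes the shares in adipocyte nuclei were above those in mesothelial, stromal and immune nuclei. Most adipocyte nuclei gave no Adcy5 at this depth. The source of these UMIs in the other types was not tested.

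The 20 genes with the highest ratios outside the rule ranged from 4.00 for Tmem120b, a nuclear envelope protein, to 3.31 for Ccdc170. Lpin1, the phosphatidate phosphatase of triglyceride synthesis, had 364 UMIs in adipocyte nuclei and 185 in the others with a ratio of 3.68 (3.09 to 4.43). Pnpla3, a lipid droplet acylhydrolase, had 108 and 59 with a ratio of 3.41, and Acacb, the acetyl-CoA carboxylase of the mitochondrial surface, had 37 and 20 with 3.40. Pdp2, the phosphatase that activates pyruvate dehydrogenase, stood at 3.49 and Slc1a5, a carrier of glutamine and other neutral amino acids, at 3.85 with 165 UMIs in adipocyte nuclei. Sfxn5, a mitochondrial carrier, stood at 3.62.

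Vipr2, a cAMP-coupled receptor for the neuropeptides VIP and PACAP, had 163 and 86 UMIs with a ratio of 3.54 (2.72 to 4.68). Chrdl1, a secreted antagonist of BMPs, stood at 3.52 with 147 UMIs in adipocyte nuclei. Angpt1, the ligand of the endothelial receptor Tie2, had 166 and 93 UMIs with a ratio of 3.34 (2.58 to 4.37), and Vegfb, a growth factor of the VEGF family, stood at 3.33. Mst1, a secreted ligand, was at 3.33. Ankef1, a protein of ankyrin repeats, had the most UMIs of the 20, with 1034 and 517 and a ratio of 3.75 (3.37 to 4.18), and 38.2% of adipocyte nuclei held a UMI of it against 9.62% of the others. Also among the 20 were Ccdc69, Frem1, C6h14orf180, Zim1 and Apmap, with 45 to 121 UMIs in adipocyte nuclei. Where the intervals were wide, as for Ccdc170 (1.90 to 6.16), the order among the 20 was not resolved.

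The 10 genes outside the rule with symbols and the most UMIs in adipocyte nuclei held both general and adipocyte genes. Among them Snrnp70, a splicing factor, led with 2846 UMIs and a ratio of 1.58. Pck1, Anxa1, Ebf1, Dst, Pdzrn3, Mcam, Txnip, Fabp4 and Ghr followed with 1893 to 1404 UMIs. Mcam, an adhesion molecule also known from vessel wall cells, had a ratio of 2.82 (2.60 to 3.05) and Pdzrn3, a ubiquitin ligase, 2.69 (2.49 to 2.90), so both were past 2-fold. Ebf1, a transcription factor of adipocytes and stroma, had a ratio of 1.71, with 3922 CPM in adipocyte nuclei, 3877 in stromal nuclei, 3405 in blood endothelial nuclei (40 UMIs), 745 in mesothelial nuclei and 467 in immune nuclei. UMIs were not scaled to gene length, so the order gives no ranking of expression between genes. A further 5 features without a gene symbol held more UMIs than Snrnp70, led by 1 with 2.59% of the UMIs of adipocyte nuclei and 3.38% of the others.

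**Figure D3:**
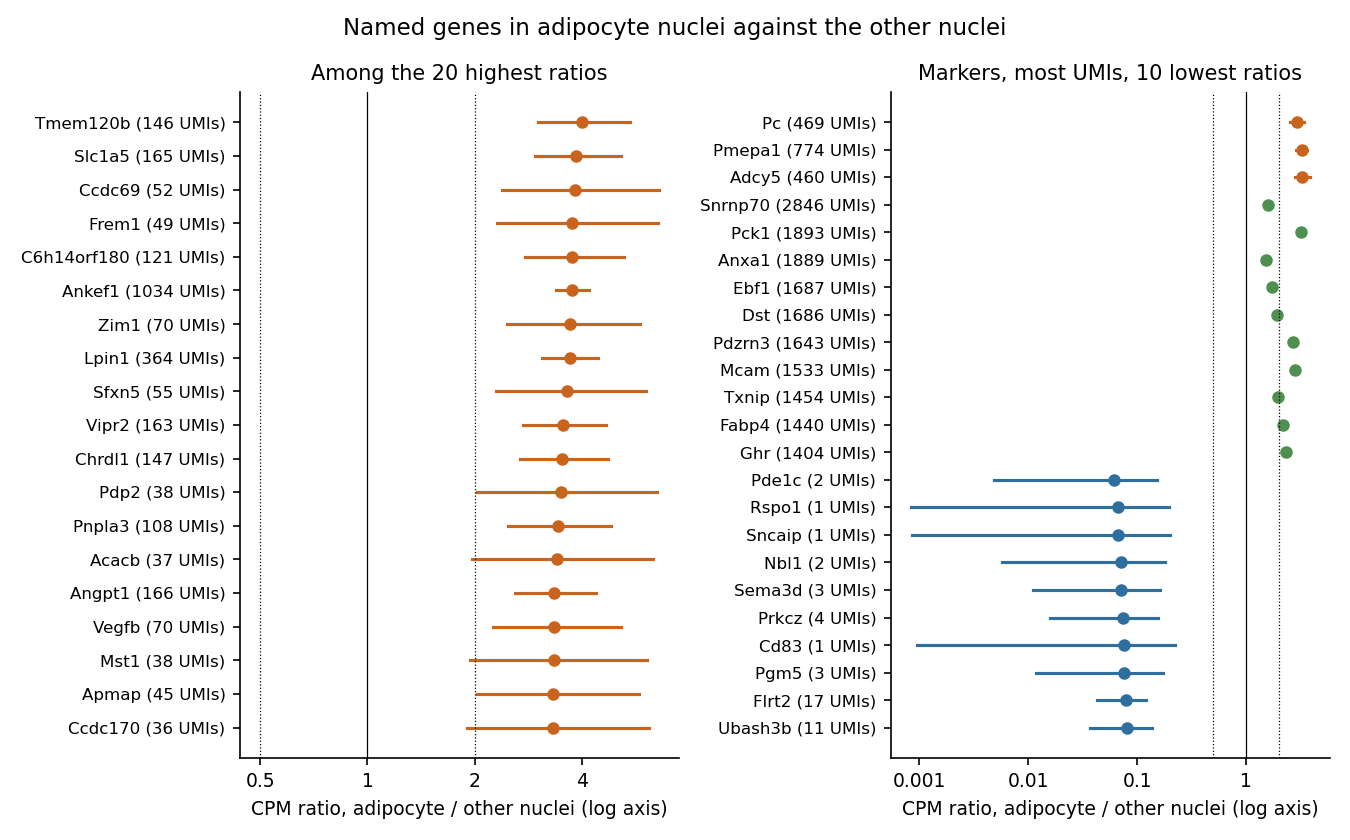
Ratio of CPM in adipocyte nuclei to CPM in the other nuclei (log axis, lines are 95% counting intervals) for genes among the 20 highest outside the rule (left), and for Pc, Pmepa1 and Adcy5 (orange), the 10 genes outside the rule with most UMIs (green) and the 10 lowest genes (blue) (right), with the UMIs in adipocyte nuclei in brackets. Dotted lines mark 2-fold; the genes on the left lie between 3.31 and 4.00, and the 10 lowest between 0.0606 and 0.081.

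Over all genes, 7.82% were at least 2-fold higher and 15.1% at least 2-fold lower, and the counts of the fat storage lists stand beside these shares. Of the triglyceride synthesis list, 8 of 11 genes with enough UMIs were at least 2-fold higher and 0 were lower, with a median ratio of 2.88 and a summed level of 8326 CPM against 2830. Gpat3, Gpd1, Dgat1, Agpat2 and Gpam, which build the glycerol backbone and add its acyl chains, had ratios of 2.99, 3.04, 2.83, 2.88 and 3.28. Of the lipogenesis list, 7 of 14 were past 2-fold and 0 were lower, with a median of 2.05. Srebf1, the transcription factor that drives the pathway, had 274 and 190 UMIs with a ratio of 2.70 (2.24 to 3.27), and Acaca, acetyl-CoA carboxylase, had 132 and 108 with 2.29. Acly, which makes cytosolic acetyl-CoA, stood at 1.91, the desaturase Scd at 1.52 and Fasn, fatty acid synthase, at 1.22. Of the fatty acid uptake list, 3 of 11 were higher and 1, Acsl5, was lower at 0.431. Lpl, which frees fatty acids from lipoproteins, had 711 and 865 UMIs and a ratio of 1.54. Of 10 lipid droplet genes, 3 were higher, among them Fitm2 at 2.60 and Hilpda at 2.52, and 1, Plin3, was lower at 0.469.

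Genes of lipolysis and cAMP signalling gave 11 of 17 at least 2-fold higher and 3 lower, beside 7.82% and 15.1% of all genes, with a median ratio of 2.20. Adrb3, the beta-3 adrenergic receptor of fat cells, had 138 UMIs in adipocyte nuclei and 96 in the others with a ratio of 2.69 (2.06 to 3.54). Prkar2b, a regulatory subunit of protein kinase A, had 663 and 429 with a ratio of 2.90. Pde3b, the phosphodiesterase through which insulin lowers cAMP, had 467 and 363 with 2.41, and Ptger3, a receptor that inhibits adenylyl cyclase, stood at 2.87. Among the 3 lower genes were Pde4d at 0.260 and Npr1 at 0.310. Npr3, the clearance receptor for natriuretic peptides, was higher at 2.58, while Npr1 is their signalling receptor.

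Of 19 insulin signalling genes, 8 were at least 2-fold higher and 2 lower, beside 7.82% and 15.1% of all genes, with a median ratio of 1.92. Pik3r1, a regulatory subunit of PI3-kinase, had 695 and 499 UMIs with a ratio of 2.61. Tbc1d4, the Akt substrate that releases glucose transporter vesicles, stood at 2.11, Trarg1, a regulator of that traffic, at 2.25, and Grb14, an inhibitor of the insulin receptor, at 2.87. Insr, the receptor, had 163 and 213 UMIs and a ratio of 1.44 (1.16 to 1.77). Akt2, a kinase of the pathway, stood at 2.05, and Igf1r was lower at 0.329.

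Transcription factors of adipogenesis were mostly within 2-fold. Of 22 genes, 4 were higher and 0 lower, beside 7.82% and 15.1% of all genes, with a median ratio of 1.37. The 4 were Srebf1 at 2.70, Ppargc1b, a coactivator of oxidative metabolism, at 2.56, Tcf7l2, a Wnt effector, at 2.08 and Rxra, the partner of Pparg, at 2.01. Ebf2, a factor of adipocyte precursors and brown fat, had 134 and 414 UMIs with a ratio of 0.611 (0.496 to 0.740). Beta-oxidation gave 2 of 6 higher and 0 lower, with a median of 1.70.

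Ucp1, the uncoupling protein of brown fat, had 0 UMIs in adipocyte nuclei and 1 in the others. With 3 counts as the limit that a count of 0 allows, this leaves room for up to 6.97 CPM. The thermogenic list summed to 632 CPM in adipocyte nuclei and 515 in the others, a ratio of 1.23 (1.05 to 1.43). Only 6 of the 21 thermogenic genes in the files reached 50 UMIs, and 7 were at 0 in adipocyte nuclei. Of the 6, 2 were past 2-fold and 0 were lower, beside 7.82% and 15.1% of all genes, with a median ratio of 1.41. Cpt1b had 30 UMIs in adipocyte nuclei with a ratio of 2.01 (1.16 to 3.49), and Kcnk3 had 27 with 2.02 (1.13 to 3.64), so both intervals reached below 2-fold. Cidea, a droplet protein abundant in brown fat, had 26 and 29 UMIs with a ratio of 1.69 (0.952 to 2.96).

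**Figure D4:**
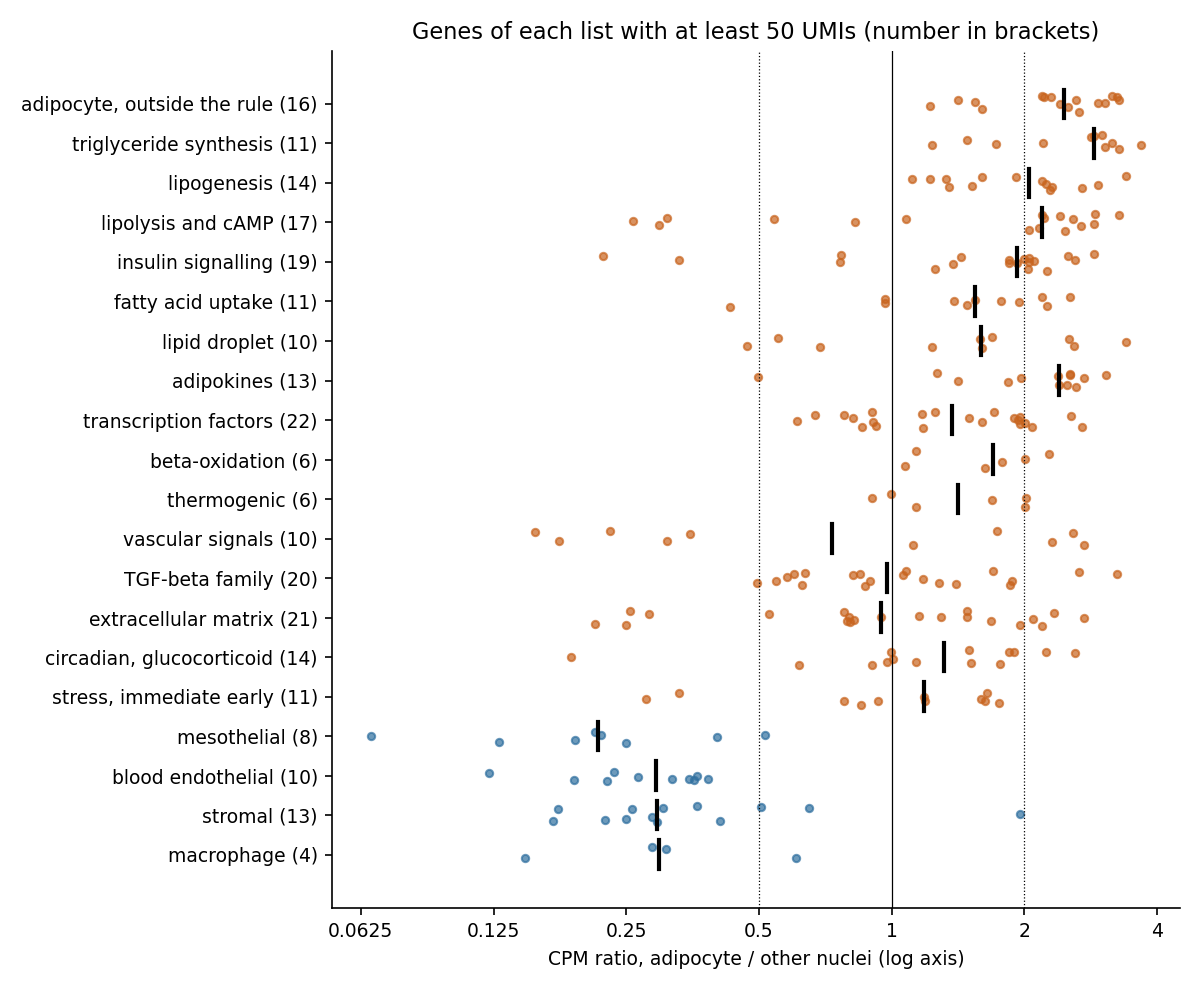
Ratio of CPM in adipocyte nuclei to CPM in the other nuclei (log axis) for each gene with at least 50 UMIs in 20 gene lists; black bars are list medians and dotted lines mark 2-fold. Medians run from 2.88 for triglyceride synthesis and 2.46 for adipocyte genes outside the rule to 0.297 or less for macrophage, stromal, blood endothelial and mesothelial genes, beside 0.981 over all genes.

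Of 13 adipokine genes, 8 were at least 2-fold higher and 1 lower, beside 7.82% and 15.1% of all genes, with a median ratio of 2.40. Vegfa, the endothelial growth factor, had 529 UMIs in adipocyte nuclei and 390 in the others with a ratio of 2.54 (2.23 to 2.91). Agt, angiotensinogen, the source of angiotensin II, had 303 and 208 with 2.73 (2.28 to 3.28). Retn, resistin, stood at 2.40. Cfd, adipsin, had 436 and 445 UMIs with 1.84, and Metrnl, the lower one, stood at 0.498.

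Of 10 genes that signal to vessels, 3 were higher and 5 lower, beside 7.82% and 15.1% of all genes, with a median ratio of 0.733. Agt, Npr3 and Slc22a3, a low-affinity transporter of catecholamines, were the higher ones, Slc22a3 at 2.31 (1.60 to 3.35). The lower ones were Prkg1 at 0.350, the natriuretic peptide receptor Npr1, Edn1 at 0.230, Nos3 at 0.176 and Gucy1a1 at 0.155. They include genes of endothelium and of nitric oxide signalling, and the rule left out nuclei with UMIs of its blood endothelial genes.

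Of 20 TGF-beta family genes, 2 were higher and 1 was lower, beside 7.82% and 15.1% of all genes, and their median ratio was 0.977. The 2 were Pmepa1 and Acvr1c, the receptor ALK7 of fat cells, at 2.66 (1.96 to 3.66). Pmepa1 alone set the side of the sum, which was 1.25 (1.18 to 1.32) with it and 0.934 (0.875 to 0.996) without it. Of 21 matrix genes, 4 were higher and 4 lower, with a median of 0.945, beside 7.82% higher and 15.1% lower over all genes. The higher ones were Col5a3 with 820 and 564 UMIs at 2.73 (2.45 to 3.04), Col4a1 at 2.33, Col4a2 at 2.19 and Col15a1 at 2.09. The lower ones were Col6a1 at 0.282, Col6a2 at 0.255, Col6a3 at 0.249 and Lama2 at 0.212.

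Stress and immediate early genes gave 0 of 11 higher and 2 lower, with a median ratio of 1.18, beside 7.82% higher and 15.1% lower over all genes. Egr1 and Fosb had 939 and 654 UMIs in adipocyte nuclei with ratios of 1.19 and 1.59, while Atf3 at 0.277 and Nr4a1 at 0.329 were lower. Of 14 circadian and glucocorticoid genes, 2 were higher, Nr1d1 at 2.61 and Pdk4 at 2.24, and Sgk1 was lower at 0.188, with a median of 1.32.

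Markers of other cell types outside the rule were low but not at 0, and their counts stand beside 15.1% lower and 7.82% higher over all genes. The rule left out nuclei with a UMI of B and kept them among the others. Lower levels of such markers therefore follow in part from the choice. The mesothelial list, with 7 of 8 genes at least 2-fold lower and 0 higher, summed to 765 CPM in adipocyte nuclei (684 to 852), 3699 in the others and 9350 in mesothelial nuclei. Its gene with most UMIs in adipocyte nuclei was Bnc2 with 125, and Gpm6a had 118 against 1738. The stromal list, with 10 of 13 lower, summed to 1574, 4317 and, in stromal nuclei, 15979 CPM, led by Gsn with 200 UMIs in adipocyte nuclei. Blood endothelial genes, 10 of 10 lower and led by Ldb2 with 22 UMIs, summed to 316 against 1314 and, in their own class, 6725 CPM. Macrophage genes, 3 of 4 lower and led by C1qa with 40 UMIs, summed to 226 against 801 and, in immune nuclei, 5814 CPM. At 0 in adipocyte nuclei were Lrrn4 and Muc1 of the mesothelial list, Gpihbp1 and Plvap of the blood endothelial list, Cd34 of the stromal list and Csf1r, Cd68, Itgam and Cd86 of the macrophage list. In classes other than its own, the mesothelial list stood at 426 CPM in blood endothelial, 424 in immune and 1692 in stromal nuclei. The stromal list stood at 1362 CPM in blood endothelial, 1358 in immune and 4187 in mesothelial nuclei. Macrophage genes stood at 170 CPM in blood endothelial, 317 in mesothelial and 343 in stromal nuclei. The part of these types' RNA in the adipocyte nuclei was not tested.

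Lymphatic genes had 25 UMIs in adipocyte nuclei and 334 in the others, and both genes that reached 50 UMIs were lower. Over all genes, 15.1% were at least 2-fold lower. B holds Prox1 of lymphatic endothelium and Ptprc of immune cells, so lower lymphatic and lymphocyte levels follow in part from the rule. Lymphocyte genes had 11 and 98 UMIs, mural genes 70 and 207 with Abcc9 lower at 0.339, and erythroid genes 9 and 66 with Hba-a1 lower at 0.248. Mast cell genes had 8 and 9, cycling genes 12 and 19, pancreatic acinar genes 7 and 16, and intestinal epithelial genes 3 and 9. The adipocyte nuclei and the others differ in total UMIs. Scaled to CPM, the ratio was 1.67 (0.560 to 4.87) for mast cell genes and 1.19 (0.525 to 2.57) for cycling genes. It was 0.821 (0.286 to 2.11) for pancreatic acinar genes and 0.626 (0.109 to 2.51) for intestinal epithelial genes, so both intervals included 1. For the lymphatic, lymphocyte, mural and erythroid lists the ratio and its interval lay below 1. Of the Schwann and nerve list, whose sum is not reported here, S100b, a calcium-binding protein of glia that fat cells also make, had 91 and 71 UMIs with a ratio of 2.40 (1.74 to 3.33), while Erbb3 was at 0 in adipocyte nuclei and Sox10 had 1 UMI.

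The 10 lowest genes had ratios of 0.0606 to 0.081 and at most 17 UMIs in adipocyte nuclei. Flrt2, an adhesion molecule, had 17 against 432 UMIs and reached 1318 CPM in mesothelial nuclei. Ubash3b, a phosphatase of blood cell signalling, had 11 against 277 and reached 594 CPM in immune nuclei, and Cd83 had 1 against 49. Pde1c, Rspo1, Sncaip, Nbl1, Sema3d, Prkcz and Pgm5 had 1 to 4 UMIs in adipocyte nuclei and 55 to 127 in the others.

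Adipocyte nuclei differed among themselves with depth. The 603 shallowest, with 85 to 164 UMIs, had 19585 CPM of adipocyte genes outside the rule (18597 to 20612), the next 602, with 165 to 261 UMIs, had 21917 (21106 to 22751), and the 598 deepest, with 262 to 1328 UMIs, had 23976 (23347 to 24618). The genes of the rule ran the other way, at 22459, 17983 and 16299 CPM, since 2 UMIs are a larger part of a shallow nucleus. Ghr was at 2195, 2819 and 3858 CPM in the same order, and Adcy5 at 758, 939.8 and 1242. Lpl was level, at 1730, 1609 and 1652 CPM, and Fabp4 was at 3686, 3480.3 and 3165. Stromal genes were at 2249, 1585 and 1347 CPM and macrophage genes at 373, 319 and 126. The part of depth and of free RNA in these differences was not tested.

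The same rule was applied to the 4 rat libraries made with the Parse kit in batch 2, from the same strain and sex. Kit, genome build, batch and depth differ between them and the 10x library, so the values stand side by side with no comparison. The rule chose 429 of 3028 nuclei in the Parse mesPVAT library (14.2%), 123 of 2805 in retroperitoneal (RP) fat (4.39%), 645 of 2708 in thoracic aorta PVAT (taPVAT, 23.8%) and 967 of 2699 in subscapular brown fat (BAT, 35.8%). These shares moved with the threshold. That of RP fat was 1.85% with A of at least 3, 2.35% with A without Pparg, Acsl1 and Pnpla2, and 16.1% with A of at least 1. The Parse mesPVAT share was 22.6% with A of at least 1, and the taPVAT share was 37.1% with B of at most 1. Adipocyte genes outside the rule had ratios of chosen to other nuclei of 2.26 (2.15 to 2.38) in the Parse mesPVAT library, 2.14 in RP fat, 1.35 in taPVAT and 1.29 in BAT. Nuclei of taPVAT and BAT held medians of 1246 and 1706 UMIs, and the effect of that depth on the choice was not tested.

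In the Parse mesPVAT library, Pmepa1 had a ratio of 4.94 (3.96 to 6.15), Pc 3.95, Pck1 4.03 and Adcy5 1.90 (1.41 to 2.48). Of the 20 genes highest in the 10x library, 19 were in that file, 14 had at least 50 UMIs and 9 of those were at least 2-fold higher there, with a median of 2.63, where 4.42% of all genes with as many UMIs and outside the rule were. In RP fat 2 of 8 were at least 2-fold higher, with a median of 1.15 and 11.3% of all genes. In taPVAT 0 of 19 were, with a median of 1.302 and 0.45% of all genes, and in BAT 0 of 18, with a median of 1.48 and 0.325% of all genes. In the Parse mesPVAT library Ankef1 stood at 4.50 and Zim1 at 4.36. Angpt1 was at 0.932 (0.529 to 1.44) in that library and at 3.34 in the 10x library. Mgll was at 0.646 (0.529 to 0.772) and 2.21 in the same order. Ucp1 had 17 UMIs in the chosen nuclei and 88 in the others of the Parse mesPVAT library, a CPM ratio of 1.16 (0.617 to 1.87). It had 5362 and 7730 in BAT, a CPM ratio of 1.54 (1.48 to 1.59), and 0 and 1 in the 10x library. These UMIs are not scaled to depth, which differs between the libraries, or to the unequal totals of chosen and other nuclei.

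**Figure D5:**
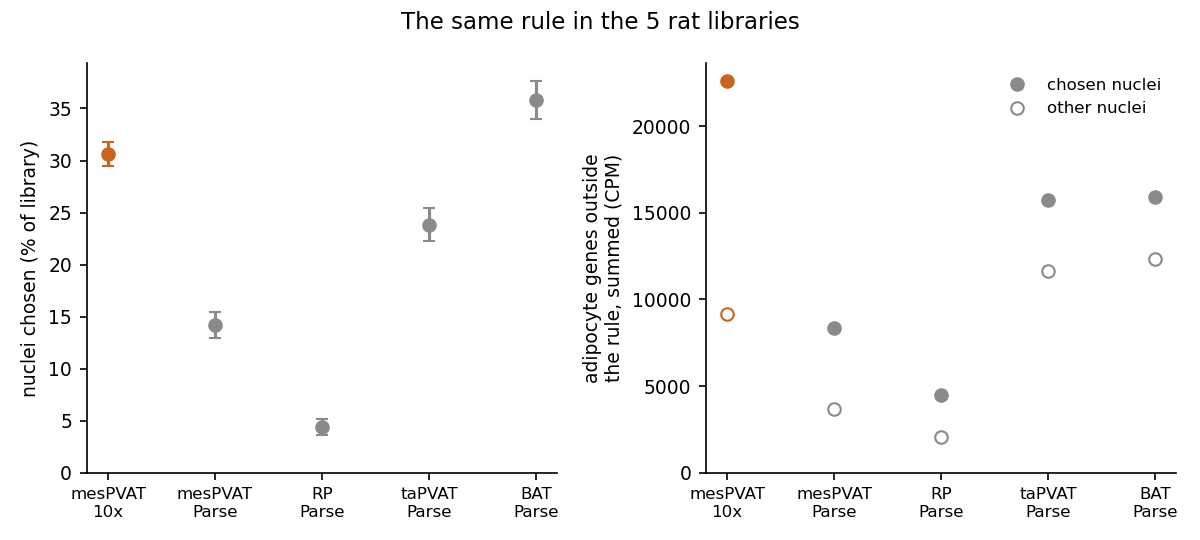
Percent of nuclei chosen by the same rule (left, bars are 95% binomial intervals) and summed CPM of adipocyte genes outside the rule in chosen (filled) and other nuclei (open) (right) in the 5 rat libraries, 1 library each. The 10x mesPVAT library (orange) has 30.6% chosen and 22608 against 9155 CPM; the Parse libraries (grey) range from 4.39 to 35.8% chosen.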

How the data were processed

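The authors processed the reads of the 10x Genomics library with Cell Ranger 7.1.0, with Rnor_6.0 named as the genome, and deposited UMI counts per gene for the barcodes called as nuclei, without normalization. The Parse counts were deposited by the authors after alignment with split-pipe. All deposited barcodes were used. For the Parse data, the paper names scDblFinder as the tool used to identify doublets. Removal of doublets before deposit is not given in the sources used here. No doublet caller was run for this report, and B = 0 leaves out only nuclei with a UMI of the 14 genes of other cell types.

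UMIs were summed over nuclei and scaled to CPM, and ratios were taken after adding 1 UMI to each sum. Genes with at least 50 UMIs and outside the rule were described as past 2-fold. With 1 library per condition no test was run. Intervals are exact Poisson, exact binomial (Clopper-Pearson), exact conditional for ratios and order-statistic for medians, at 95%. Thinning was without replacement with seed 20. The code was tested on simulated data under Python 3.11.15, numpy 2.4.6, scipy 1.17.1 and pandas 2.3.3.

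Genes named are the 20 highest and 10 lowest ratios with a symbol (at least 20 UMIs in adipocyte nuclei for the highest), the 10 outside the rule with most UMIs, Adcy5, Pc and Pmepa1, and genes of the lists. Members and lists were chosen with earlier results of these data known. Lists overlap in part. Cd36, Mlxipl, Gnas, Cox8b, Cyp2j4, Junb, Dusp1, Krt19, Muc16, Lyve1, Hba2, Hbb-b1 and all 6 nuclear-retained RNAs on a list could not be matched to 1 feature and are not analysed here. Some genes of the lists and ranks are not reported here. The alternatives are those of the closing section.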

Additional observations from a re-analysis of the deposited data

How the results depend on the processing

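With 1 library, 1803 shallow nuclei and a threshold of 2 UMIs, the choice of nuclei sets the share more than counting error does. No paired analysis was possible because each condition has 1 library and no result comes from a test.

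The share of nuclei chosen, 30.6%, was 21.4% with A of at least 3, 43.1% with A of at least 1, 37.0% with B of at most 1, 20.8% with A without Pparg, Acsl1 and Pnpla2, 33.1% under the study's limits on nuclei (at least 100 UMIs, at most 15000 UMIs, 4500 genes and 3% mitochondrial UMIs) and 45.0% among nuclei with at least 200 UMIs. In the order A of at least 3, A of at least 1, A without those 3 genes, the study's limits and at least 200 UMIs, the median UMIs were 239, 177, 229, 215 and 288. Median genes were 91 at 100 UMIs and 175 without thinning. Mitochondrial percent was 0.132 with A of at least 3, 0.164 with A of at least 1, 0.131 without the 3 genes and 0.114 with at least 200 UMIs.

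Genes higher in adipocyte nuclei numbered 881 at 1.5-fold, 48 at 3-fold and 597 with a minimum of 20 UMIs, and genes lower numbered 1203, 453 and 1408, and 413 with a minimum of 100 UMIs. The other alternatives gave 268 to 561 higher and 571 to 873 lower. The ratio of adipocyte genes outside the rule was 2.27 with A of at least 3, 2.91 with B of at most 1, 2.14 without the 3 genes, 2.74 with at least 200 UMIs, 3.51 against nuclei with A = 0, 2.34 without Pck1 and 2.30 without the 5% of nuclei with most UMIs, the last chosen after seeing the data. Above 1 under every alternative run, it moved by less than 1.5 times. Scaling without the 10 most abundant genes gave 380 higher and 765 lower. None of the 43 genes named by rank or as markers reversed under the 9 alternatives that recompute them (0 reversals), where the scaling without the 10 most abundant genes has no value for 3 of them. Against nuclei with A = 0, 13 of the 43 ratios moved by over 1.5 times, among them Adcy5 to 6.02, Pmepa1 to 6.18 and Ankef1 to 6.81. So did 10 with A of at least 1, 5 with B of at most 1, 7 without the 3 genes, 4 with at least 200 UMIs, 3 without the 5% of nuclei with most UMIs and 0 under the others. The 20 highest remained at least 2-fold higher and the 10 lowest at least 2-fold lower under each. These genes were picked by their ratios in this library, and the alternatives share many of its nuclei. Their hold past 2-fold is therefore a description and no independent check.

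Of nuclei in the Parse libraries mesPVAT, RP fat, taPVAT and BAT, A of at least 3 chose 10.1, 1.85, 21.9 and 34.7%, A of at least 1 chose 22.6, 16.1, 26.1 and 37.6%, B of at most 1 chose 20.3, 6.17, 37.1 and 49.5%, and A without the 3 genes chose 10.9, 2.35, 20.9 and 33.7%. With at least 200 UMIs, mesPVAT and RP fat stood at 15.5 and 5.99%.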
